A study of Mus musculus with 34 samples.

Results

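The genes described here are 9 members of the complement system, C1qa, C1qb, C1qc, C1s1, C2, C3, C4b, Cfb and Serping1, taken by gene symbol from RNA sequencing tables of mouse heart and adipose tissue. All 9 had a row among the 15145 genes of the adipose table and passed the filter on low counts, which left 15112 genes. Of the 13238 genes in the heart table, 13230 passed that filter, and 7 of the 9 were among them. C2 and Cfb were not analysed here in heart. The animals were C57BL/6J mice, and the comparisons asked how a high-fat, high-calorie diet (HFCD) and cycles of a fasting mimicking diet (FMD) were reflected in these genes. HFCD+FMD mice were aged 20 or 21 months and ate HFCD, with a 5-day FMD once every 4 weeks for 11 cycles. From cycle 6, mice also received control diet for 2 days after each FMD, and tissue was collected 4 days after the last one. HFCD mice were aged 20 to 22 months and took 60% of their calories from fat without FMD, and control mice, aged 20 or 21 months, took 10% from fat. Adipose libraries numbered 6 for HFCD+FMD, 4 for HFCD and 3 for control, and heart libraries 4, 5 and 5. The labels give neither the sex of the mice nor the fat depot. The design text speaks of 18 mice for 34 labelled libraries, and no label ties a library to an animal, so p-values measure the spread between these libraries.

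Complement is a cascade of serum proteins that marks microbes, dying cells and immune complexes. C1qa, C1qb and C1qc encode the 3 chains of C1q, the recognition protein of the classical pathway, which tissue macrophages make. C1s1 encodes C1s, the protease of the C1 complex that cuts C4 (C4b) and C2, and the cut products form the enzyme that splits C3, the protein on which all complement pathways converge. Cfb encodes factor B, the catalytic part of the alternative-pathway enzyme. Serping1 encodes C1 inhibitor, which inactivates C1r and C1s. Adipose tissue is a known source of complement, above all of factor D (Cfd, adipsin), the protease that cuts factor B.

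The members lie on 4 chromosomes in GRCm38. C1qa (chr4:136895917-136898803), C1qc (chr4:136889804-136893065) and C1qb (chr4:136880129-136886187) form a cluster of 18.7 kb, all on the minus strand. C4b (chr17:34728380-34743882), Cfb (chr17:34856374-34862518) and C2 (chr17:34862604-34898265) share the complement region of the major histocompatibility complex, and C3 (chr17:57203970-57228136) lies elsewhere on the same chromosome. C1s1 is at chr6:124530345-124542359 and Serping1 at chr2:84765387-84775444, and all 9 genes are on the minus strand. Reads of some members could not be told from those of a copy. Of the 50-base stretches of C4b transcripts, 34.6% also occurred in C4a, and 21.8% of those of C1s1 also occurred in C1s2. For Cfb the shared part was 73.0% and for C2 it was 38.7%, both with Gm20547, an overlapping gene model. The levels of these 4 genes are therefore uncertain where counting could split or drop such reads. C4a, C1s2 and Gm20547 were not analysed here, and stretches of C1qa, C1qb, C1qc, C3 and Serping1 were shared with no other gene.

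Start-site sequence from RefSeq (GRCm38.p6) was found for C1qb, C1qc, C1s1 and C3. Because the C1q chains moved together in adipose tissue, the 250 bases before the start sites of C1qb (chr4:136886201-136886450) and C1qc (chr4:136892915-136893164), both minus strand, are shown. The RefSeq start site of C1qc lies inside the gene as placed above, which reaches to 136893065. Part of the C1qc bases printed is therefore within that gene. The capitals mark GAGGAA, the core of the binding motif of PU.1, a transcription factor of macrophages, or its reverse complement.
C1qb: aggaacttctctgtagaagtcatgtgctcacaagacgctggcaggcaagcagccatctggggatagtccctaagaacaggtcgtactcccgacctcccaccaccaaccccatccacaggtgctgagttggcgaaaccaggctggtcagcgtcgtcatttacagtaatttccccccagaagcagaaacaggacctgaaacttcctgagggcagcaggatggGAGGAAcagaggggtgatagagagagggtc
C1qc: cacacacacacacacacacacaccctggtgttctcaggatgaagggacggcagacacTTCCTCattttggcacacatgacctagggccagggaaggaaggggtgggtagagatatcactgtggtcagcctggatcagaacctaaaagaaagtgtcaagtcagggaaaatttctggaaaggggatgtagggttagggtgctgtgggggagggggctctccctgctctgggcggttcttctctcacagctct
The match began at position -30 from the start site in C1qb, on the strand printed, and at position -193 in C1qc, on the other strand. Searched on both strands, these letters occurred in 23.3% of 32851 such windows. They were in neither the C1s1 nor the C3 windows. TTCNNNGAA, the GAS motif of STAT factors, occurred in 7.0% of all windows, and the ISRE core of interferon response elements in 3.0%. None of the matched members held either of them.

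Adipose libraries held 15604982 to 40831656 counts and heart libraries 16848195 to 47859170. Values per library are CPM, that is, counts scaled to a common library size, after TMM scaling of library totals. Heart libraries had been put in 3 sets by the authors' own adjustment of their deposited log2 values, and what the sets stand for is not stated. HFCD replicates 1 to 4 and control replicates 2, 3 and 5 formed set A. HFCD+FMD replicate 1 formed set B with control replicates 4 and 6. In set C, HFCD replicate 5 joined HFCD+FMD replicates 2, 3 and 5. Cardiomyocyte markers summed to 25055 to 54226 CPM in heart libraries and to 2.23 to 116 CPM in adipose ones. Adipocyte markers summed to 6324 to 15441 CPM in adipose libraries and to 40.5 to 127 CPM in heart ones. Heart HFCD replicate 5 stood apart from the other 13 heart libraries, and the main edgeR results in heart are given with and without it. It was also the only library analysed from a mouse aged 22 months, so age cannot be told apart from its other traits. Mitochondrially encoded genes took 2.20 to 7.47% of adipose counts in HFCD+FMD, 2.17 to 6.08% in HFCD and 12.6 to 29.3% in control libraries, and 21.8 to 71.5% of heart counts. Whether this share plays a part in the adipose results was not tested.

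The levels of the members spanned a wide range. Per kilobase of exon, C3 was highest in adipose tissue of HFCD+FMD mice, at 518 ± 179 CPM per kb, and of control mice, at 555 ± 235 CPM per kb (mean ± SD). In HFCD adipose tissue C1qb averaged 461 ± 195, Serping1 390.0 ± 122 and C3 379.8 ± 123 CPM per kb, and these neighbours lay within each other's SD. C2 and Cfb were lowest in all 3 diets, with Cfb at 0.491 ± 0.265, 0.568 ± 0.270 and 0.188 ± 0.146 CPM per kb in HFCD+FMD, HFCD and control. In control hearts C3 averaged 43.2 ± 13.0, Serping1 39.2 ± 6.65 and C1qa 36.3 ± 10.3 CPM per kb, levels that overlapped within their SD. C4b was lowest of the 7 in hearts of every diet, at 2.75 ± 0.968 CPM per kb in control.

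In adipose tissue the first comparison set HFCD against control (n = 4 and n = 3). The 3 C1q chains and C4b rose under HFCD. Serping1 and Cfb had positive changes and C2 and C3 negative ones that did not pass the test, and C1s1 was close to its control level. In all, 4 of the 9 members rose and 0 fell, where 15.7% of all genes tested rose, 14.2% fell and 30.0% changed in either direction (edgeR quasi-likelihood test, Benjamini-Hochberg adjustment over all genes). An unadjusted p below 0.05 was found for 7 of the 9, against 42.3% of all genes. The median log2 fold change of the 9 was 1.32, and that of all genes was -0.00.

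C1qc had 238, 369.8, 369 and 538 CPM in the 4 HFCD libraries, against 37.8, 92.9 and 203 CPM in the 3 control libraries. Every HFCD library was above every control library, and the log2 fold change was 1.76 (adjusted p = 0.0176, SE 0.49). C1qb had 268, 461, 496 and 783 CPM in HFCD and 48.9, 123 and 281 CPM in control adipose tissue. The lowest HFCD library was just under the highest control library, with a log2 fold change of 1.73 (adjusted p = 0.0294, SE 0.54). C1qa had 225, 334, 348 and 492 CPM in HFCD, against 44.6, 95.3 and 225 CPM in control, where again 1 HFCD library was level with the highest control. Its log2 fold change was 1.52 (adjusted p = 0.0286, SE 0.47). In bulk tissue, more cells of a type and more RNA per cell cannot be told apart.

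C4b, the thioester protein cut by C1s, had 656, 676, 572 and 441 CPM in HFCD adipose tissue, against 90.2, 157 and 454 CPM in control. Of the HFCD libraries, 3 were above every control library, and the log2 fold change was 1.32 (adjusted p = 0.0326, SE 0.42). C1s1 showed no such pattern, with 288, 275, 302 and 247 CPM in HFCD, inside the control values of 133, 219 and 374 CPM. C2, the partner of C4 in the classical enzyme, had 24.6, 18.9, 20.1 and 16.3 CPM in HFCD and 37.1, 28.1 and 37.3 CPM in control. Here every HFCD library was below every control library, and the log2 fold change of -0.77 (adjusted p = 0.101, SE 0.34) did not pass. C1qc and Cfb were the members whose HFCD libraries all lay above the controls, and C2 the one whose libraries all lay below. Of all genes, 20.6% were separated upward in this way and 18.9% downward.

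C3 had 1284, 1727, 2794 and 2009 CPM in HFCD, against 2010.3, 2306 and 4239.5 CPM in control, ranges that overlapped. Its log2 fold change was -0.55 (adjusted p = 0.270, SE 0.36). Cfb was low, with 1.76, 2.61, 0.922 and 1.12 CPM in HFCD and 0.0968, 0.578 and 0.919 CPM in control, and a log2 fold change of 1.49 (adjusted p = 0.0754, SE 0.60). Serping1 had 601, 731, 1186 and 1109 CPM in HFCD, against 209, 476 and 644 CPM in control. The lowest HFCD library was under the highest control one, and the log2 fold change was 1.03 (adjusted p = 0.0828, SE 0.43).

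**Figure D1:**
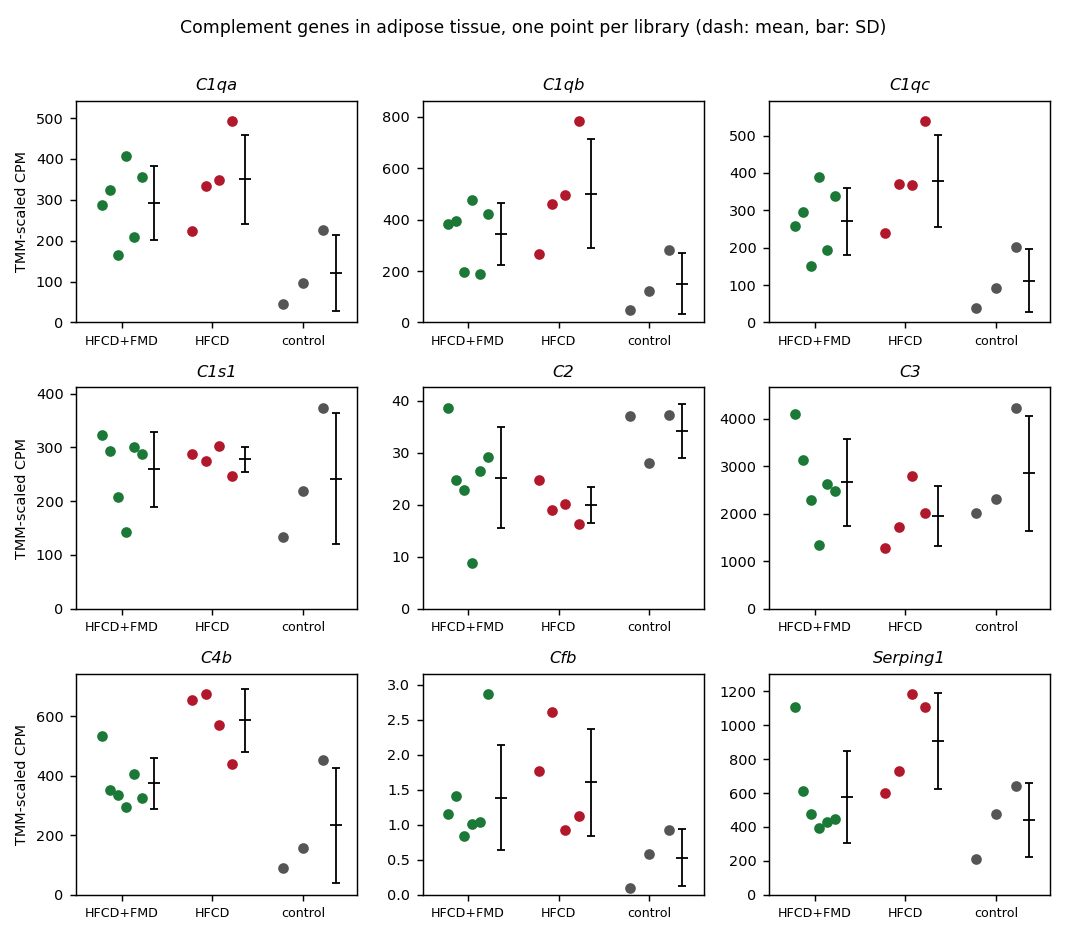
Each panel plots 1 member in adipose tissue, as TMM-scaled CPM on the y axis, for HFCD+FMD (6 libraries), HFCD (4) and control (3), with 1 point per library, a dash for the mean and a bar for the SD. C1q chains and C4b have higher means in HFCD than in control libraries, and of these only C1qc has every HFCD library above every control library. All C2 values of HFCD lie under the lowest control value.

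These 4 calls rested on few control libraries. Without control replicate 1, or without control replicate 3, none of the 9 members passed, although the log2 fold changes of the C1q chains stayed between 1.13 and 1.65. Without HFCD replicate 2, or without HFCD replicate 4, 2 passed, and without control replicate 5, the control library highest in C1q, 6 passed. Over all genes, 2348 of 15135 passed without control replicate 1 and 2991 of 15123 without control replicate 3. Without control replicate 5, 4614 of 15135 did.

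Macrophage markers moved with the C1q chains. The 9 markers, all detected in every adipose library, summed to 968 to 3150.5 CPM in HFCD+FMD, 2043 to 4124 CPM in HFCD and 265 to 1363 CPM in control libraries, and 7 of the 9 rose in HFCD against control. The part of macrophage number in the C1q result was not tested. Fibroblast markers summed to 4743 to 7795, 5243 to 9733 and 3282 to 6422 CPM in HFCD+FMD, HFCD and control, and 4 of 8 rose in HFCD against control. Mesothelial markers summed to 31.1 to 209.9, 21.8 to 119.7 and 202 to 444 CPM in the same order, and 5 of 6 fell. Their part in the complement values was not tested either.

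The second comparison set HFCD+FMD against HFCD (n = 6 and n = 4) and asked whether the FMD cycles altered these levels. No member passed in either direction by edgeR, DESeq2 or limma on the deposited log2 values, and 0 of the 9 had an unadjusted p below 0.05. Of all genes, 0.205% passed, 0.0265% as higher and 0.179% as lower, and 11.2% had an unadjusted p below 0.05. Groups that did not overlap were found for 0 members, against 1.39% of genes upward and 1.95% downward. The median log2 fold change of the members was -0.26, against 0.01 over all genes.

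C4b had 295 to 532 CPM (median 345) in HFCD+FMD adipose tissue, against 656, 676, 572 and 441 CPM in HFCD. Only HFCD+FMD replicate 1 was above the lowest HFCD library, and the log2 fold change was -0.65 (adjusted p = 0.501, SE 0.34). Serping1 had 396 to 1107 CPM (median 462) in HFCD+FMD, against 601, 731, 1186 and 1109 CPM in HFCD, with a log2 fold change of -0.65 (adjusted p = 0.504, SE 0.35). In this gene HFCD+FMD replicates 1 and 2 reached into the HFCD range and the other 4 were under it. C1qb had 190.2 to 476 CPM (median 389) in HFCD+FMD, with a log2 difference from HFCD of -0.54 (adjusted p = 0.663, SE 0.43). C1qc, with 149.9 to 389 CPM (median 276) in HFCD+FMD, had one of -0.48 (adjusted p = 0.671, SE 0.39), and C1qa, with 164 to 407 CPM (median 306), one of -0.26 (adjusted p = 0.838, SE 0.38). The HFCD+FMD libraries of all 3 chains overlapped the HFCD range.

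C3 had 1344 to 4106 CPM (median 2550.4) in HFCD+FMD adipose tissue, which overlapped the HFCD range and reached above it in HFCD+FMD replicates 1 and 2, with a log2 fold change of 0.45 (adjusted p = 0.615, SE 0.31). C2 had 8.83 to 38.7 CPM (median 25.7) in HFCD+FMD and a log2 fold change of 0.33 (adjusted p = 0.701, SE 0.29). Cfb, with 0.845 to 2.87 CPM (median 1.09), and C1s1, with 142 to 323 CPM (median 290.4), had log2 fold changes of -0.22 (SE 0.46) and -0.10 (SE 0.26). Changes of either sign lie within these errors.

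Set against control (n = 6 and n = 3), HFCD+FMD gave 0 members passing by edgeR, where 19.7% of all genes passed, 10.5% as higher and 9.25% as lower. Groups that did not overlap were also found for 0 members, against 10.5% of genes in each direction. DESeq2 called the 3 C1q chains as higher, and limma on the deposited log2 values called C1qa and C1qc. Over all genes DESeq2 called 4013 of 15112 there and limma 3141 of 15082. Of the 9 members, C1qa, C1qb, C1qc and Cfb had an unadjusted p below 0.05 by edgeR, 4 in all, against 36.1% of all genes. C1qa and C1qc came nearest, with log2 fold changes of 1.26 (adjusted p = 0.0610, SE 0.44) and 1.28 (adjusted p = 0.0631, SE 0.45). C1qb had one of 1.18 (adjusted p = 0.107, SE 0.50) and C4b one of 0.68 (adjusted p = 0.225, SE 0.39). In C1qa, C1qb, C1qc and C4b the lowest HFCD+FMD library was under the highest control library. Of the macrophage markers, 6 of 9 rose in HFCD+FMD against control. The remaining members had log2 fold changes between -0.44 (C2) and 1.27 (Cfb). Without control replicate 5, 4 members passed, and without HFCD+FMD replicate 3, 2 did. Over all genes, 3500 of 15135 and 2941 of 15108 passed in these fits. The comparisons of HFCD+FMD and of HFCD with control use the same 3 control libraries, so they are not independent.

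**Figure D2:**
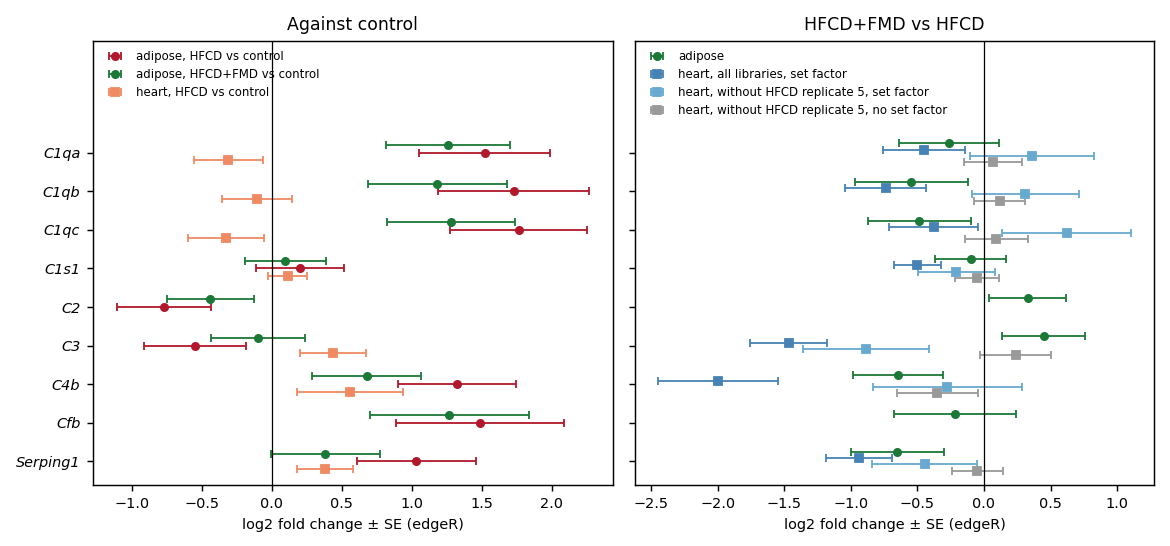
Log2 fold changes of the members with their SE (x axis), against control in the left panel and for HFCD+FMD against HFCD in the right panel, in adipose tissue (circles) and heart (squares, on the left for HFCD alone). In the right panel the heart values of C3, C4b and the C1q chains move toward or past 0 when HFCD replicate 5 is left out. With the set factor, the fit without that library rests on HFCD+FMD replicate 1.

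Of the ratios between genes of the same library, 3 separated HFCD+FMD from HFCD. They were chosen after values had been seen, 9 ratios were examined, and no test was run on them. C3 over Serping1, the substrate over the C1 inhibitor, was 3.39 to 6.11 in the 6 HFCD+FMD libraries, 2.14, 2.36, 2.36 and 1.81 in the HFCD libraries and 9.604, 4.85 and 6.59 in the control libraries. All 4 HFCD libraries were below every library of the other diets. C1qc over C1qa was 0.896 to 0.956 in HFCD+FMD, 1.06, 1.11, 1.06 and 1.09 in HFCD and 0.846, 0.974 and 0.901 in control libraries, so that HFCD stood above both. C3 over the fibroblast gene Dcn was 1.60 to 2.46 in HFCD+FMD, above the 0.997 to 1.45 of HFCD and the 1.101 to 1.56 of control.

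C4b over Dcn separated control from both high-fat diets, at 0.181 to 0.434 in HFCD+FMD, 0.219 to 0.588 in HFCD and 0.0606, 0.0750 and 0.168 in control. C3 over C4b did the same, at 4.55 to 8.90, 1.96 to 4.88 and 22.3, 14.7 and 9.34. The sum of the C1q chains over the macrophage marker sum was 0.355 to 0.614 in HFCD+FMD, 0.358, 0.431, 0.393 and 0.439 in HFCD and 0.495, 0.471 and 0.521 in control libraries. HFCD libraries lay below all controls in this ratio, while the C1q sum itself spanned 131 to 1812 CPM over the 13 libraries. The other 3 ratios, C1qb over C1qa, C1q over Mrc1 and C1ra over C1s1, overlapped between every pair of diets.

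**Figure D3:**
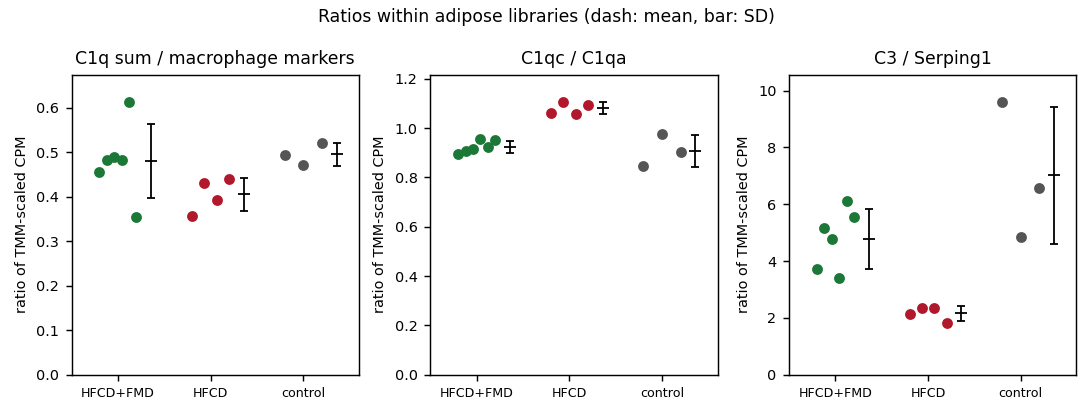
Ratios of TMM-scaled CPM within each adipose library (y axis, starting at 0) for HFCD+FMD, HFCD and control, with 1 point per library, a dash for the mean and a bar for the SD. HFCD libraries are apart from both other diets in C1qc over C1qa and in C3 over Serping1, and apart from control in the C1q sum over macrophage markers.

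Of 40 other complement genes listed, 28 were tested in adipose tissue. Between HFCD and control, 6 of the 28 rose and 1 fell, with a median log2 fold change of 0.08. Over all genes 15.7% rose and 14.2% fell, and the 7 calls among the 28 are to be read against the 30.0% called in either direction. Receptors made up most of the rises, with 4 of 8 (median 1.78). Itgax and Itgb2, the subunits of complement receptor CR4, were among them. Itgax had 124, 101, 117 and 101 CPM in HFCD, against 3.10, 3.25 and 7.51 CPM in control, with a log2 fold change of 4.54 (adjusted p = 0.00154, SE 0.71). Itgb2 changed by 2.51 (adjusted p = 0.00717, SE 0.57) on the log2 scale, C3ar1, the C3a receptor, by 3.06 (adjusted p = 0.0103, SE 0.75) and C5ar2, a C5a receptor, by 1.90 (adjusted p = 0.0273, SE 0.58). C5ar1, the other C5a receptor, had a change of 1.67 (adjusted p = 0.0804, SE 0.68).

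Of the regulators tested, 1 of 4 soluble and 1 of 5 membrane ones rose and 0 fell. Cfi, the protease that inactivates C3b, had 3.87, 1.45, 2.84 and 1.83 CPM in HFCD against 0, 0.845 and 0.799 CPM in control, with a log2 fold change of 2.06 (adjusted p = 0.0475, SE 0.73). Cd59a, which blocks the membrane attack complex, rose by 0.46 (adjusted p = 0.0481, SE 0.16) on the log2 scale. For Cd55, which speeds convertase decay, the log2 fold change was -0.75 (adjusted p = 0.173, SE 0.40). Cfd, the alternative-pathway protease, fell, with 1316, 710.2, 1519 and 1392 CPM in HFCD, against 6741, 3088 and 2688 CPM in control, and the log2 fold change was -1.76 (adjusted p = 0.0493, SE 0.63). Of the adipocyte markers, 3 of 6 also fell, and their sum was 6324 to 11755, 8373 to 9701 and 11359 to 15441 CPM in HFCD+FMD, HFCD and control. Their part in the Cfd result was not tested. Of these calls, those of Itgax, Itgb2 and C3ar1 passed whichever library was left out. C5ar2 passed in 10 of 13 such fits, with an adjusted p of up to 0.0955. Those of Cfi, Cfd and Cd59a were lost without any 1 of most libraries, with the largest adjusted p at 0.109 for Cfi, 0.219 for Cfd and 0.168 for Cd59a. Cfd also did not pass with limma on the deposited log2 values (adjusted p = 0.102).

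Between HFCD+FMD and HFCD, 0 of the 28 passed, 3 had an unadjusted p below 0.05, against 11.2% of all genes, and the median log2 fold change was -0.36. Cfi, Cd59a and Itgax were separated downward, as were 1.95% of all genes. Cfi had 0.144 to 0.799 CPM (median 0.376) in HFCD+FMD, all under the 4 HFCD libraries, with a log2 fold change of -2.48 (adjusted p = 0.136, SE 0.57). Cd59a had 98.5 to 159 CPM (median 132) in HFCD+FMD, again under every HFCD library, which held 202, 239, 192 and 206 CPM. Its log2 fold change was -0.68 (adjusted p = 0.0640, SE 0.13). Itgax had 7.72 to 64.6 CPM (median 30.7) in HFCD+FMD, also under every HFCD library, and a log2 fold change of -1.86 (adjusted p = 0.174, SE 0.48). Cfd had 221 to 3509 CPM (median 2166) in HFCD+FMD and a log2 fold change of 0.79 (SE 0.54), and HFCD+FMD replicate 4, at the low end, was under every HFCD library.

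Between HFCD+FMD and control, 3 of the 28 rose and 2 fell, near the shares of 10.5% and 9.25% over all genes. The rises were Itgax (2.68, adjusted p = 0.0153), Itgb2 (1.85, adjusted p = 0.0287) and C3ar1 (2.25, adjusted p = 0.0392) on the log2 scale. The falls were Cd46, a membrane cofactor, at -1.20 (adjusted p = 0.0299, SE 0.34), and C8g, a chain of the membrane attack complex, at -1.11 (adjusted p = 0.0374, SE 0.34). Each of these 5 calls was lost without control replicate 1 and without control replicate 3. Of 13 fits with 1 library left out, Itgax and Itgb2 passed in 11, Cd46 in 8, C8g in 7 and C3ar1 in 6. Without control replicate 1 the log2 fold change was 2.499 for Itgax and -0.52 for C8g, with adjusted p-values of 0.0800 for Itgax, 0.132 for Itgb2, 0.153 for C3ar1, 0.138 for Cd46 and 0.306 for C8g.

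**Figure D4:**
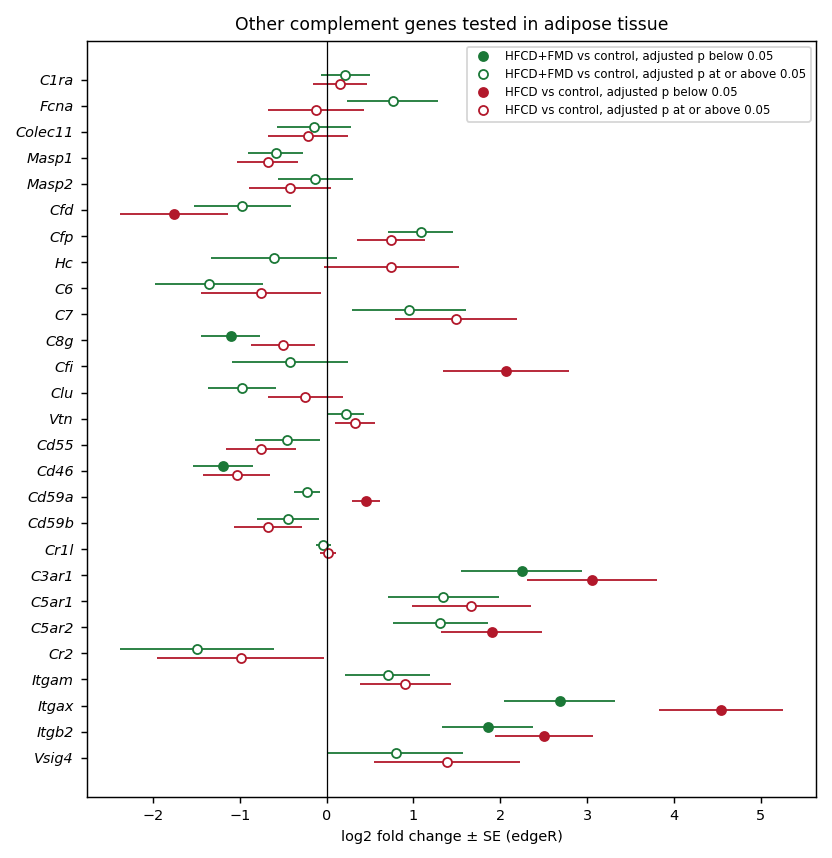
Log2 fold changes with SE (x axis) of 27 of the 28 other complement genes tested in adipose tissue, for HFCD+FMD against control and for HFCD against control, with filled points where the adjusted p was below 0.05. The receptors Itgax, Itgb2 and C3ar1 are to the right of 0 in both, and Cfd is to the left.

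In heart no member passed in any of the 3 comparisons by edgeR, while other tools called some members in the comparisons of HFCD+FMD. In HFCD against control (n = 5 and n = 5) 0 of 7 members passed and 0 of 13230 genes (0%) did by edgeR, while 12.8% of genes, and none of the members, had an unadjusted p below 0.05. DESeq2 called 61 genes and 0 members there. For HFCD+FMD against HFCD (n = 4 and n = 5) 0.106% of genes passed, and in HFCD+FMD against control (n = 4 and n = 5) 0.0227% did. DESeq2 called 3 members as lower in HFCD+FMD against HFCD (Serping1, C4b and C3), and limma on the deposited log2 values called these and C1s1. Over all genes DESeq2 called 279 of 13230 there and limma 1328 of 13166. Against control, limma called C3, C4b and C1qb as lower, and 1193 of 13166 genes in all. DESeq2 called 0 members there and 145 of 13230 genes. The limma fit used heart values with the set term already removed and did not count the uncertainty of that term. Its p-values can therefore be too small. Neither DESeq2 nor limma was refitted without HFCD replicate 5, the heart library highest in C3, C4b, C1s1 and Serping1.

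The C1q chains overlapped between the 3 diets. C1qa had 30.4, 32.2, 19.5 and 32.01 CPM in HFCD+FMD hearts, 28.9, 31.0, 21.5, 27.9 and 53.8 CPM in HFCD hearts and 54.4, 25.5, 36.1, 39.8 and 32.9 CPM in control hearts. C1qb had 27.5, 25.9, 24.3 and 34.4 CPM in HFCD+FMD, 23.6, 27.4, 28.2, 24.7 and 72.4 CPM in HFCD and 44.9, 23.5, 34.8, 34.8 and 24.1 CPM in control. C1qc had 27.8, 27.8, 16.5 and 21.0 CPM, 23.2, 26.4, 14.04, 23.7 and 43.1 CPM and 43.1, 22.9, 28.9, 34.9 and 26.6 CPM in the same order. HFCD replicate 5, the last HFCD value, was the highest HFCD library in all of them. Macrophage markers summed to 131 to 222, 115 to 324 and 112 to 185 CPM in HFCD+FMD, HFCD and control hearts.

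C3 had 186, 237, 231 and 357 CPM in HFCD+FMD hearts, 159, 181, 319, 207 and 974 CPM in HFCD hearts and 204, 139, 256, 193 and 316 CPM in control hearts. C4b had 16.1, 12.3, 8.77 and 7.005 CPM in HFCD+FMD, 13.6, 11.7, 19.8, 11.9 and 74.3 CPM in HFCD and 8.16, 13.0, 15.4, 19.6 and 22.2 CPM in control. Both genes were far higher in HFCD replicate 5 than in any other heart library. C1s1 had 34.2, 29.4, 21.8 and 27.96 CPM, 31.1, 29.8, 24.4, 32.5 and 42.5 CPM and 29.4, 26.3, 36.4, 30.8 and 40.7 CPM in HFCD+FMD, HFCD and control. Serping1 had 80.0, 89.9, 105 and 134 CPM, 88.0, 106, 139.7, 92.5 and 259 CPM and 103, 65.4, 96.5, 102 and 88.5 CPM in the same order. No group of any of the 7 members lay apart from another, with or without HFCD replicate 5. Among all genes, 3.21% were separated upward and 3.98% downward for HFCD against control, and 5.15% and 5.51% without that library. For HFCD+FMD against HFCD, 2.59% were separated upward and 2.06% downward, and 4.26% and 3.52% without it. For HFCD+FMD against control the shares were 4.76% upward and 4.26% downward.

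**Figure D5:**
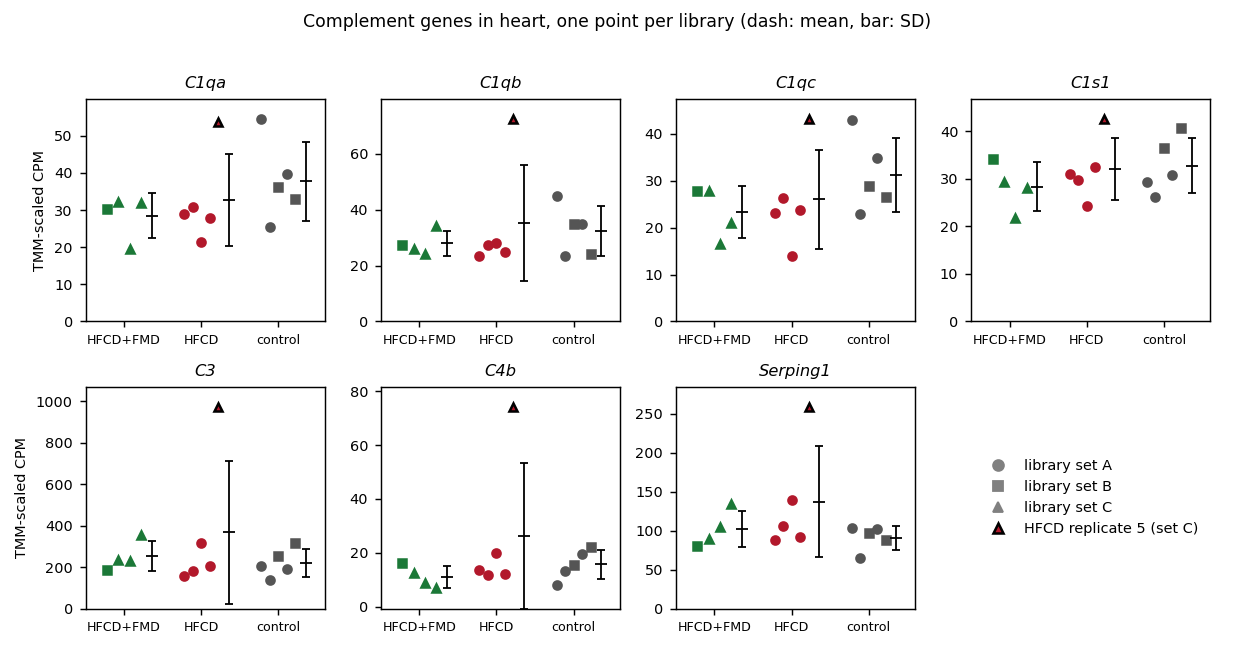
Each panel plots 1 of the 7 members tested in heart, as TMM-scaled CPM on the y axis, for HFCD+FMD (4 libraries), HFCD (5) and control (5), with 1 point per library shaped by library set, a dash for the mean and a bar for the SD. HFCD replicate 5, outlined in black, is far above the other libraries in C3, C4b, Serping1 and C1qb.

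For HFCD against control, the heart log2 fold changes lay between -0.33 (C1qc) and 0.56 (C4b), with adjusted p-values from 0.429. The C1q chains had negative values, C1qa -0.31 (SE 0.25), C1qb -0.11 (SE 0.25) and C1qc -0.33 (SE 0.27). Without HFCD replicate 5 they were -0.55, -0.42 and -0.62, and C4b was 0.04. None passed.

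For HFCD+FMD against HFCD, all 7 heart members had negative log2 fold changes, and 5 of 7 had an unadjusted p below 0.05, against 11.0% of all genes. C3 had -1.47 (adjusted p = 0.0667, SE 0.29) and C4b -1.996 (adjusted p = 0.0867, SE 0.45). Serping1 had -0.94 (adjusted p = 0.136, SE 0.25) and C1qb -0.74 (adjusted p = 0.380, SE 0.30). Of the markers of other cells, Cidec alone passed, as lower. Median log2 fold changes were -0.58 for macrophage markers (8 of 9 negative), -2.06 for the 2 neutrophil markers tested and -5.36 for adipocyte markers (5 of 6 negative). Cardiomyocyte markers summed to 40407 to 47493 CPM in HFCD+FMD hearts and 25055 to 34647 CPM in HFCD hearts, which did not overlap. Their part in the members' changes was not tested. The model with library sets rests here on HFCD replicate 5 and HFCD+FMD replicate 1, the libraries that tie HFCD+FMD to the other diets. The marker medians above are from this model, and no refit of them is given. Without HFCD replicate 5, set C held HFCD+FMD libraries only, so the HFCD+FMD effect rested on HFCD+FMD replicate 1 alone. The change was then -0.89 for C3, -0.28 for C4b and -0.45 for Serping1. It was positive for C1qa (0.36), C1qb (0.31) and C1qc (0.62). With the sets also left out of the model, C3 had 0.24 and C4b -0.35. Without HFCD+FMD replicate 1 instead, 4 members passed as lower, where 368 of 13235 genes passed. That fit compares HFCD+FMD with HFCD only through HFCD replicate 5, the 1 HFCD library in a set with HFCD+FMD. Without control replicate 2, 1 member passed, where 79 of 13230 genes did.

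Set against control hearts, all 7 HFCD+FMD members again had negative log2 fold changes, from -1.44 (C4b) to -0.39 (C1s1), and 4 had an unadjusted p below 0.05, against 9.48% of all genes. The directions of C3 and Serping1 depend on the set factor, since without it C3 was 0.19 and Serping1 0.17. C1qa, C1qb, C1qc, C1s1 and C4b stayed negative under all 22 alternatives. Adjusted p-values began at 0.282. Without HFCD replicate 5, which is in neither of these groups but ties the sets together, the 7 values lay between -0.63 and -0.00. The HFCD+FMD effect in that fit rested on HFCD+FMD replicate 1 alone. Without HFCD+FMD replicate 1, 2 members passed as lower, where 217 of 13235 genes passed. HFCD replicate 5 alone then ties HFCD+FMD to control.

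HFCD replicate 5 was the highest of the 14 heart libraries in 6 of the 7 members and the next highest in C1qa, although in C1qc control replicate 2 was level with it. Set against the median of the other 13 libraries, it had 5.71 times as much C4b, 4.71 times as much C3, 2.68 times as much Serping1 and 2.64 times as much C1qb. C1qa was 1.74, C1qc 1.64 and C1s1 1.42 times that median. Among other complement genes Cfd stood at 27.9 CPM, where the others held 0.108 to 5.37 CPM. Vsig4, a macrophage receptor for C3 fragments, stood at 14.1 CPM, where the others held 0.682 to 3.33 CPM. Clu, a soluble inhibitor of the membrane attack complex, was 3.63 times the median.

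The same library was the highest of the 14 in the sums of macrophage, mesothelial, adipocyte and neutrophil markers, but not of fibroblast or endothelial ones. Pdgfra, Col1a2, Lum, Kdr and Tie1 of these last lists were below the median of the other hearts. The rest of these lists went the other way. Dpt, Pi16, Pecam1 and Emcn were the highest of the 14 in this library, and Dcn, Col1a1, Col3a1 and Cdh5 were above that median. Its macrophage markers summed to 324 CPM, where the other HFCD hearts held 115 to 185 CPM. The adipocyte gene Adipoq stood at 9.31 CPM, where the others held 0.0722 to 3.01 CPM. The mesothelial gene Upk3b stood at 7.32 CPM, where the others held 0.0374 to 1.82 CPM. The neutrophil gene S100a9 stood at 9.21 CPM, where the highest of the others held 0.975 CPM. Its cardiomyocyte marker sum of 25055 CPM was the lowest of the 14. Of the hepatocyte genes with a row, Alb was at 0 and Ahsg stood at 28.9 CPM, where the others held 1.35 to 6.18 CPM of Ahsg. The part of these cells in its complement values was not tested.

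Of the other complement genes, 23 were tested in heart. Between HFCD and control 0 passed, and 2 had an unadjusted p below 0.05, against 12.8% of all genes. Between HFCD+FMD and HFCD, Cfd and Vsig4 passed as lower, where 0.106% of all genes passed. The log2 fold change was -6.24 (adjusted p = 0.0392, SE 0.99) for Cfd and -2.70 (adjusted p = 0.0454, SE 0.46) for Vsig4. Both calls were lost without HFCD replicate 5, where the changes were -0.02 for Cfd and -1.71 for Vsig4. That fit takes the HFCD+FMD effect from HFCD+FMD replicate 1 alone. Of 14 fits with 1 library left out, Cfd passed in 6 and Vsig4 in 5, and neither passed without the set factor or with the stricter low-count filter. Cfd had 0.195, 0.122, 0.374 and 0.220 CPM in HFCD+FMD hearts, 0.108, 0.112, 0.317, 0.449 and 27.9 CPM in HFCD hearts and 1.02, 1.28, 1.4997, 5.37 and 2.61 CPM in control hearts. Every HFCD+FMD library, and every HFCD library but replicate 5, was below every control library. Adipocyte markers summed to 42.03 to 62.4, 40.5 to 127 and 52.7 to 95.4 CPM in HFCD+FMD, HFCD and control hearts. Their median log2 fold change was -7.68 in HFCD+FMD against control and -2.32 in HFCD against control, with 4 of 6 at an unadjusted p below 0.05 in each. These medians are from the model with library sets, and no refit of them is given. They are far larger than the differences between the sums. Plin1, Cidec and Retn were at 0 in some heart libraries, and Cidec stood at 8.15 CPM in HFCD replicate 5, where the others held 0 to 3.59 CPM. The part of adipocyte markers in the Cfd result was not tested. For HFCD+FMD against control, the log2 fold change of Cfd was -9.13 (adjusted p = 0.0155, SE 1.19). Without HFCD replicate 5 it was -3.38, resting on HFCD+FMD replicate 1 alone, and did not pass. Without the set factor alone it was -3.48 (adjusted p = 0.233). Without both HFCD replicate 5 and the set factor it was -3.48 (adjusted p = 0.00986).

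The difference between tissues was tested as heart effect minus adipose effect, over 12606 genes in both tables, with no library set factor. In HFCD against control, 2 of 7 members differed as more negative in heart, where 11.4% of genes did so and 22.0% differed in either direction. C1qc had a difference of -2.04 (adjusted p = 0.0103, SE 0.54) and C1qa one of -1.75 (adjusted p = 0.0198, SE 0.52) on the log2 scale. C1qb had -1.63 (adjusted p = 0.0524, SE 0.60). Without heart HFCD replicate 5, 4 members differed, with -2.07 for C1qb and -1.47 for C4b besides C1qa and C1qc. Over all genes 2567 of 12606 differed in that fit. The comparison of HFCD+FMD with control gave 2 of 7 that differed, where 8.72% of genes were more negative in heart and 17.1% differed in either direction. They were C1qc at -1.70 (adjusted p = 0.0317, SE 0.54) and C1qa at -1.66 (adjusted p = 0.0306, SE 0.52). In HFCD+FMD against HFCD, 0 of 7 differed, against 0.0159% of genes. With 18 mice for 34 libraries some mice gave more than 1, and the fit treats all libraries as independent. Of single libraries, only heart HFCD replicate 5 was left out of this test. Its dependence on single adipose control libraries was not tested.

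The genes whose profile over the 13 adipose libraries was most like the mean of the C1q chains were Ptprj, Fcgr3, Btk, Clec4a3 and Kcnab2. Likeness is the root mean square difference between centred log2 CPM values, among 3649 genes, and was 0.16 for Ptprj and 0.18 for Fcgr3, where the C1q profile itself had an SD of 0.999. C1s1 was most like Nmnat2 (0.16) and C1ra (0.19), the gene beside it, among 9759 genes with a C1s1 SD of 0.44. C4b was most like C1qtnf1 (0.25, among 4948 genes), C3 like Ntn4 (0.25, among 8355), Serping1 like Hacd4 (0.30, among 6062), C2 like Cox6b2 (0.20, among 7630) and Cfb like Cdca7 (0.40, among 3475). In the 14 heart libraries the C1q mean was most like Prr13 (0.19, among 10223 genes), where its SD was 0.41. C3 was most like Bst1 (0.21, among 5450 genes) and C5ar1 was among the nearest 5 (0.30). Serping1 was most like Cd53 (0.10, among 9287), C1s1 like Etfbkmt (0.11, among 11898) and C4b like Mmp3 (0.32, among 3720). HFCD replicate 5 is among the points behind each heart profile.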

How the data were processed

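Total RNA of heart and adipose tissue was made into ribosomal RNA-depleted libraries, per the labels' protocols. The submitters' processing notes name STAR 2.5.3, R 3.5.3, limma and edgeR, and the genome build mm10. Which program and annotation gave the counts is not given in the sources used here. Deposited by the authors were whole-number counts per gene and log2 CPM values. The heart log2 values used had a per-gene term of 3 library sets removed, as a comparison with the counts showed. Of the 34 labelled libraries, 27 had columns and 7 were not analysed here.

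Counts were fitted in R 4.3.3 with edgeR 4.0.16, each tissue on its own and the 3 diets in 1 model. Settings were TMM scaling, filterByExpr by diet, a two-sided quasi-likelihood F-test with robust dispersion and a false discovery rate of 0.05. Heart models also had a term for the library sets. There, HFCD+FMD and the other diets share a set only through HFCD replicate 5 and HFCD+FMD replicate 1. SE is the log2 fold change over the square root of F. The tissue difference was the tissue-by-diet interaction. Gene positions and exon lengths are from GENCODE M21 (GRCm38), which also named 63 adipose and 72 heart genes, and promoters are from RefSeq. Calls of HFCD against control were tried on simulated counts with a single fixed dispersion, no library set effect and no outlier library. The simulation therefore does not cover the HFCD+FMD comparisons or the heart library sets. Alternatives were RLE scaling, DESeq2 1.42.0, other low-count filters (none, or 1 CPM in 5 libraries), limma 3.58.1 on the deposited log2 values, only the diets compared, no set factor and each library left out.

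The members, the gene lists and the tests were chosen with earlier results of these data known. Named genes were the members, listed complement genes that passed, Cfd, C4a, Cd55, C3ar1 and C5ar1, copies of members, markers and the genes of most like profile (mean of at least 1 CPM), of which a part is given. A further gene of the complement list is not reported here, though the list's counts include it. The ratios within libraries, and Cfi and Cd59a in HFCD+FMD against HFCD, were added after their values were seen. Replicates are numbered in accession order. Depth limits Cfb, which held under 3 CPM in all adipose libraries.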

Additional observations from a re-analysis of the deposited data

Results flagged for a closer look

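Within diets, single libraries stood far from the rest of their group by Dixon's criterion in 6 of 39 groups tested, where chance gives about 1 in 20. In heart HFCD, replicate 5 was high in C1qb (72.4 CPM, against 28.2 in the next library), C3 (974 CPM, against 319) and C4b (74.3 CPM, against 19.8). In heart HFCD+FMD, replicate 3 was low in C1qa, at 19.5 CPM against 30.4 CPM in the next library. In adipose HFCD+FMD, replicate 1 was high in Serping1, at 1107 CPM against 609 CPM in the next library, and replicate 6 was high in Cfb, at 2.87 CPM against 1.41 CPM.

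For C1qa and C1qc, 2 of the 7 members, the effect of diet differed between tissues by the interaction test. Over all genes, 22.0% differed in HFCD against control and 17.1% in HFCD+FMD against control. In HFCD against control, heart minus adipose was -2.04 for C1qc and -1.75 for C1qa on the log2 scale. In HFCD+FMD against control it was -1.70 for C1qc and -1.66 for C1qa.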

How the results depend on the processing

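No paired analysis was possible because the labels give no replicate numbers and tie no library to an animal. In HFCD against control in adipose tissue, the count of members that passed (4) was 2 with only the 2 diets compared (C1qc higher, C2 lower) and 0 to 6 with 1 library left out. In HFCD+FMD against control in adipose tissue (0) it was 3 with DESeq2, 2 with the deposited log2 values and 0 to 4 with 1 library left out. In HFCD+FMD against HFCD in heart (0) it was 3 with DESeq2, 4 with the deposited log2 values, 3 with only the 2 diets compared and 0 to 4 with 1 library left out. The 3 with only the 2 diets, and the 4 without HFCD+FMD replicate 1, rest on HFCD replicate 5. The fits with DESeq2 and with the deposited log2 values include that library and were not repeated without it. With only the 2 diets, 268 of 13197 genes passed. In HFCD+FMD against control in heart (0) the count of members was 3 with the deposited log2 values and 0 to 2 with 1 library left out. The tissue difference in HFCD against control (2) was 4 without heart HFCD replicate 5. HFCD+FMD against HFCD in adipose tissue and HFCD against control in heart stayed at 0 under all 19 and 22 alternatives. Of 132 recomputed counts 115 stayed within 1.5 times, and the cause of the changes was not tested.

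Signs turned in 25 of 1328 recomputed single-gene values, none of them passing. Without the set factor, heart HFCD against control gave C1qb 0.12 and C1s1 -0.027, and HFCD+FMD against control gave Serping1 0.17 and C3 0.19. Without the set factor and HFCD replicate 5, HFCD against control gave C1s1 -0.16, C4b -0.16 and C3 -0.053. HFCD+FMD against HFCD then gave C1qb 0.12, C1qc 0.092, C1qa 0.067 and C3 0.24, and HFCD+FMD against control Serping1 0.16 and C3 0.18. With 1 library left out, adipose HFCD against control ranged from -0.087 to 0.66 for C1s1. Adipose HFCD+FMD against HFCD ranged from -0.17 to 0.024 for C1s1 and from -0.56 to 0.12 for Cfb, and HFCD+FMD against control from -0.29 to 0.30 for C3 and from -0.19 to 0.56 for C1s1. In heart, HFCD against control ranged from -0.42 to 0.14 for C1qb. There, HFCD+FMD against HFCD ranged from -1.36 to 0.31 for C1qb, from -0.98 to 0.62 for C1qc and from -0.94 to 0.36 for C1qa. The tissue difference of HFCD+FMD against HFCD was 0.058 for C1s1 and 0.30 for C4b without heart HFCD replicate 5. DESeq2 gave no adjusted p for Cfd in heart, and those values are left out.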
